A study of Saccharomyces pastorianus with 12 samples.

Results

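The 10 genes described here encode the enzymes that turn pyruvate into ethanol and acetate: the pyruvate decarboxylase genes PDC1, PDC5 and PDC6, the alcohol dehydrogenase genes ADH1, ADH2, ADH3, ADH4 and ADH5, and the aldehyde dehydrogenase genes ALD4 and ALD6. They were taken by name from the platform annotation of the array, which gave 1 probe set for each, and all 10 were among the 5503 genes tested of 5635 with a named Saccharomyces cerevisiae probe set. No probe set among the 10 had a name ending that marks probes shared between genes. The study measured RNA of the lager yeast Saccharomyces pastorianus during an aerobic propagation, the step in which breweries multiply yeast for pitching. The design implies a comparison of the sampling times, and each gene was followed over the 12 arrays.

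All 12 samples were of strain CB11 from a single 140 hl vessel, which received yeast grown aerobically in an 8 hl vessel. The cells grew at 20 °C in wort of 17° Plato made with 80% malt and 20% maltose adjunct. Zinc was added as the sulphate to reach 0.5 mg per l, and molecular oxygen was fed to hold 7 to 8 mg per l in solution. By the labels the groups differ in time alone, although their arrays differ too, as described below. Group 0h was sampled right after inoculation, and 4h, 8h and 30h later in the same run, each with samples A, B and C. The labels do not name separate propagations for the 3 samples of a time. The p-values therefore reflect how far these samples scatter, and that scatter may be technical. Sampling time also goes together with the state of the wort, which was not measured here. S. pastorianus is a hybrid, and a signal sums whatever RNA of either parental genome bound to probes designed on S. cerevisiae.

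In yeast, pyruvate decarboxylase splits pyruvate into carbon dioxide and acetaldehyde. Alcohol dehydrogenase then reduces acetaldehyde to ethanol and regenerates the NAD+ that glycolysis needs, while aldehyde dehydrogenase oxidises acetaldehyde to acetate, which feeds cytosolic acetyl-CoA and supplies NADPH. In S. cerevisiae the isozymes divide this work. PDC1 is the main decarboxylase gene, PDC5 is its close relative that takes over when PDC1 is lost, and PDC6 is a minor gene linked to sulphur limitation. Adh1 is the main fermentative enzyme of the cytosol. Adh2 oxidises ethanol, and its gene is repressed by glucose. Adh3 is the mitochondrial enzyme, Adh4 belongs to an unrelated family of alcohol dehydrogenases and its gene is induced by zinc shortage, and Adh5 is a minor enzyme. Ald6 is the main cytosolic aldehyde dehydrogenase of growth on sugar, and Ald4 is the main mitochondrial one, whose gene is repressed by glucose.

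The arrays of early and late times differed. On the 6 early arrays (0h and 4h) the log2 deposited signals of tested genes had an SD of 1.91 to 2.03, and on the 6 late arrays (8h and 30h) one of 1.21 to 1.33. A change between early and late times cannot be told apart from this array difference. The signals were therefore quantile normalised before any comparison, so that each array had the same distribution, and a level below is a log2 normalised signal, relative to the other genes of its array. Such levels say nothing of the total mRNA in a cell. At 0h, samples A and C had a median 3′ to 5′ signal ratio over 8 control genes, a measure of transcript completeness, of 35.5 and 6.96, against 1.88 for 0h B and 1.30 to 2.02 on the later arrays. The part of the 3′ to 5′ ratio in the 0h results below was not tested. Probe sets for Schizosaccharomyces pombe genes, whose RNA this culture should not hold, gave the background: the 95th percentile of their signals on an array was its threshold. All 10 genes were above the threshold on all 12 arrays, with ADH2 on 8h C the nearest to it at 1.84 times. The S. pombe genes adh1 and adh4 gave deposited signals of 0.333 to 8.65 and 0.526 to 12.3, below the threshold on every array.

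All 10 genes differed between the 4 times by the limma F test (adjusted p of 0.0133 or lower), as did 78.4% of all tested genes. Between 0h and 4h, 4 of the 10 rose, namely PDC1, ADH1, ADH4 and ADH5, and none fell (6 at an unadjusted p under 0.05, with limma). Over all tested genes, 11.8% were called higher and 11.8% lower in that comparison. The median change of the 10 was 0.86 and that of all tested genes 0.02. Between 4h and 8h, 8 of the 10 fell and none rose, with PDC6 and ADH4 not called, against 33.9% called lower and 30.7% called higher over all genes. The median change was -1.49 against -0.12 for all genes. Between 8h and 30h, PDC1 and ADH1 fell and ALD6 rose, in a comparison that called 2.73% of all genes lower and 0.909% higher. The median of the 10 was -0.16 there, and that of all genes 0.02.

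From inoculation to the end, 30h against 0h, 8 of the 10 fell, and ADH4 and PDC6 rose. Of all tested genes, 33.3% were called lower and 31.2% higher. At 30h against 4h the same 8 genes fell and none rose, against 34.5% lower and 32.4% higher over all genes. The median changes of the 10 were -1.26 and -1.85. These comparisons and those above share arrays, so their counts are not separate evidence.

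**Figure D1:**
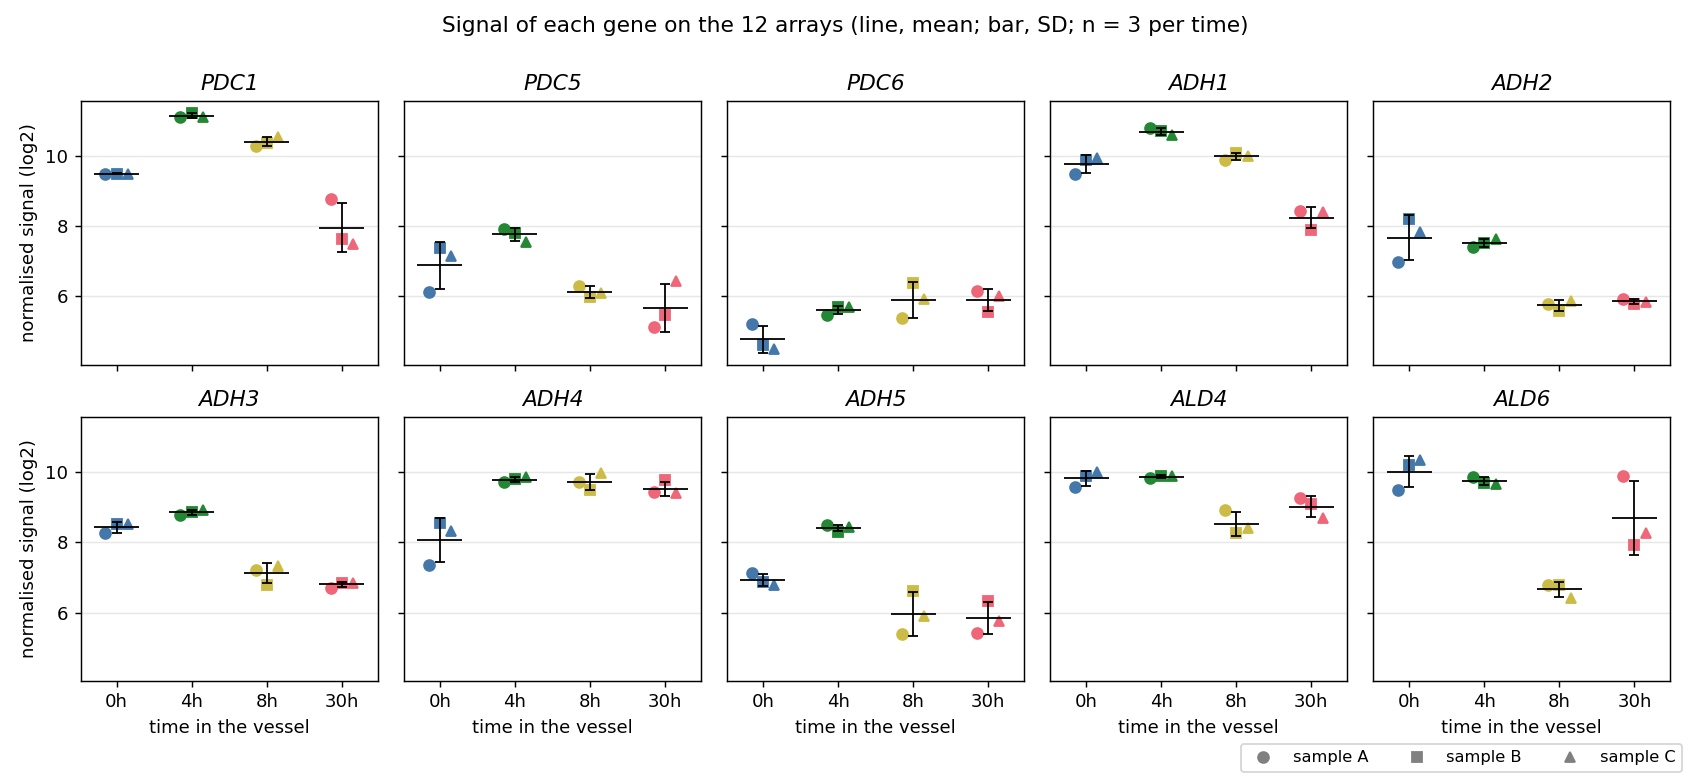
Log2 normalised signal (y axis) of each of the 10 genes by sampling time (x axis), 1 panel per gene; circles, squares and triangles are samples A, B and C, lines are means of 3 arrays and bars are SDs. PDC1 and ADH1 are highest at 4h and lowest at 30h, ALD6 is lowest at 8h, and ADH4 stays near its 4h level, although with median centring of the arrays in place of quantile normalisation ADH4 is lower at 8h than at 4h.

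PDC1, for the main decarboxylase, had the widest range among the decarboxylase genes. Its levels in samples A, B and C were 9.49, 9.49 and 9.47 (0h), 11.10, 11.23 and 11.10 (4h), 10.28, 10.38 and 10.54 (8h), and 8.77, 7.62 and 7.48 (30h). No arrays of different times overlapped. The samples of 30h were all the lowest, with A above B and C. PDC1 rose by 1.66 ± 0.28 (limma SE) from 0h to 4h, a 3.15-fold change (n = 3 arrays per time; adjusted p = 0.00106, limma). It was lower by 1.67-fold at 8h than at 4h (log2 change -0.74, adjusted p = 0.0335, limma). That call ended when any 1 of the 4h or 8h arrays was left out, at adjusted p = 0.0544 to 0.111 (limma), while the change stayed between -0.80 and -0.64 in those fits. With median centring the same change was -1.92, and the changes from 0h and 4h to 30h were -2.61 and -3.96, against -1.53 and -3.18. From 8h to 30h PDC1 fell by 2.44 ± 0.28, or 5.44-fold (adjusted p = 0.000152, limma). That change lay at the 0.236th percentile of the changes of all tested genes. Within its array, PDC1 stood at the 99.8th percentile or higher of tested genes at 4h and at the 74.3rd to 91.6th at 30h.

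PDC5 is the relative of PDC1. Levels in samples A, B and C were 6.13, 7.38 and 7.16 (0h), 7.92, 7.80 and 7.56 (4h), 6.30, 5.98 and 6.08 (8h), and 5.12, 5.47 and 6.43 (30h). The 4h arrays were the highest, and the 0h and 30h arrays spread widely and overlapped. Its change from 0h to 4h was 0.87 ± 0.36 and was not called (adjusted p = 0.0946, limma), although the arrays did not overlap and median centring called it (adjusted p = 0.0338). PDC5 fell by 1.64 ± 0.36 from 4h to 8h (adjusted p = 0.00122, limma). At 30h against 8h it changed by -0.44, with a 95% interval of -1.22 to 0.33.

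PDC6 moved in a different way. In samples A, B and C its levels were 5.20, 4.61 and 4.52 (0h), 5.48, 5.69 and 5.68 (4h), 5.37, 6.39 and 5.92 (8h), and 6.16, 5.55 and 5.997 (30h). All 0h arrays were below all later ones, and the later times overlapped. PDC6 rose by 1.13 ± 0.31 from 0h to 30h, or 2.19-fold (adjusted p = 0.00614, limma). The change from 0h to 4h was 0.84 ± 0.31 (adjusted p = 0.0675, limma). It was called without 0h A, where it was 1.05, and without 8h A, with median centring, in a fit of these 2 times, and with array weights (adjusted p of 0.0211, 0.0458, 0.0204, 0.0422 and 2.71e-05, limma). The weights ran from 0.084 (0h A) to 9.07 (4h B), and that fit called 1781 of all tested genes higher and 1527 lower from 0h to 4h. The main fit called 647 and 648. This limit holds for each call with array weights below. Its percentile within the array was 9.76 on 0h C, its lowest, and 47.1 on 8h B, its highest.

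Among the alcohol dehydrogenases, ADH1, for the fermentative enzyme, followed a course like that of PDC1. Samples A, B and C had levels of 9.48, 9.87 and 9.94 (0h), 10.78, 10.70 and 10.58 (4h), 9.89, 10.09 and 9.99 (8h), and 8.43, 7.90 and 8.39 (30h). The 4h arrays were all the highest and the 30h arrays all the lowest, while 0h and 8h overlapped. ADH1 rose by 0.93 ± 0.22 from 0h to 4h, or 1.90-fold (adjusted p = 0.00804, limma). It fell by 0.70 ± 0.22 from 4h to 8h (adjusted p = 0.0115, limma) and by 1.75 ± 0.22, or 3.36-fold, from 8h to 30h (adjusted p = 0.000251, limma). Median centring gave -2.19 from 4h to 8h, -2.72 from 0h to 30h and -3.55 from 4h to 30h for ADH1, against -0.70, -1.52 and -2.45. On the log2 scale the change from 8h to 30h lay at the 1.18th percentile of all tested genes. Pearson's r of ADH1 with PDC1 over the 12 arrays, which share 4 times, was 0.951.

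ADH2 encodes the ethanol-oxidising enzyme. Its levels in samples A, B and C were 6.96, 8.20 and 7.84 (0h), 7.41, 7.52 and 7.62 (4h), 5.79, 5.57 and 5.87 (8h), and 5.94, 5.80 and 5.83 (30h). The 6 late arrays were all below the 6 early ones. The 0h arrays surrounded those of 4h, with A, the array with the 3′ to 5′ ratio of 35.5, the lowest. The change from 0h to 4h was -0.16 ± 0.28 and was not called (adjusted p = 0.722, limma), but with array weights, where 0h A counted least, it was -0.45 (adjusted p = 0.00594, limma). ADH2 fell by 1.77 ± 0.28, or 3.41-fold, from 4h to 8h (adjusted p = 9.68e-05, limma). From 8h to 30h the difference was 0.11, with a 95% interval of -0.50 to 0.72. ADH2 was called higher in none of the 5 comparisons (limma, nor at an unadjusted p under 0.05).

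ADH3 encodes the mitochondrial enzyme. Levels in samples A, B and C were 8.26, 8.51 and 8.51 (0h), 8.79, 8.86 and 8.91 (4h), 7.22, 6.79 and 7.33 (8h), and 6.71, 6.85 and 6.86 (30h). The late arrays were again all lower than the early ones, with a small difference between 0h and 4h. ADH3 fell by 1.74 ± 0.21, or 3.33-fold, from 4h to 8h (adjusted p = 8.73e-06, limma). With median centring this change was -2.53, and that from 4h to 30h was -2.78 against -2.05. The change from 0h to 4h, 0.43 ± 0.21, was not called (adjusted p = 0.158, limma) but was with median centring and array weights (adjusted p of 0.0157 and 0.00777). Between 8h and 30h it was -0.31, with an interval of -0.76 to 0.14.

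ADH4, the zinc-linked gene, was the alcohol dehydrogenase gene that ended above its starting level. In samples A, B and C its levels were 7.35, 8.54 and 8.32 (0h), 9.73, 9.79 and 9.84 (4h), 9.71, 9.50 and 9.97 (8h), and 9.44, 9.76 and 9.39 (30h). The 0h arrays were all the lowest, with A the lowest of them, and the later times overlapped. ADH4 rose by 1.71 ± 0.28 from 0h to 4h, or 3.28-fold (adjusted p = 0.000778, limma), and was 2.75-fold higher at 30h than at 0h (log2 change 1.46 ± 0.28, adjusted p = 0.000427, limma). Without both 0h A and 0h C, which leaves 0h B as the only 0h array, these changes were 1.16 from 0h to 4h and 0.92 from 0h to 30h. Its change from 4h to 8h was -0.06, with an interval of -0.66 to 0.54, and it stood at the 95.8th to 97.96th percentile of tested genes on each array from 4h on. For so bright a gene the comparison across 4h and 8h depends on how the narrower spread of the late arrays is handled. With each array centred on its median and not brought to a common distribution, ADH4 fell by 1.74 from 4h to 8h (adjusted p = 0.000501, limma), and its 30h against 0h change was 0.30 and not called (adjusted p = 0.449, limma).

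ADH5, for a minor cytosolic enzyme, peaked at 4h. Samples A, B and C had levels of 7.14, 6.88 and 6.80 (0h), 8.48, 8.31 and 8.44 (4h), 5.38, 6.62 and 5.89 (8h), and 5.42, 6.33 and 5.77 (30h). No array of another time reached those of 4h, and 8h and 30h overlapped. ADH5 rose by 1.47 ± 0.31, or 2.77-fold, from 0h to 4h (adjusted p = 0.00461, limma) and fell by 2.44 ± 0.31, or 5.44-fold, from 4h to 8h (adjusted p = 1.43e-05, limma). Its fall from 0h to 30h was 1.10 ± 0.31 in size (adjusted p = 0.00721, limma). Without both 0h A and 0h C, which leaves 0h B as the only 0h array, the change was -0.996 and was not called.

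**Figure D2:**
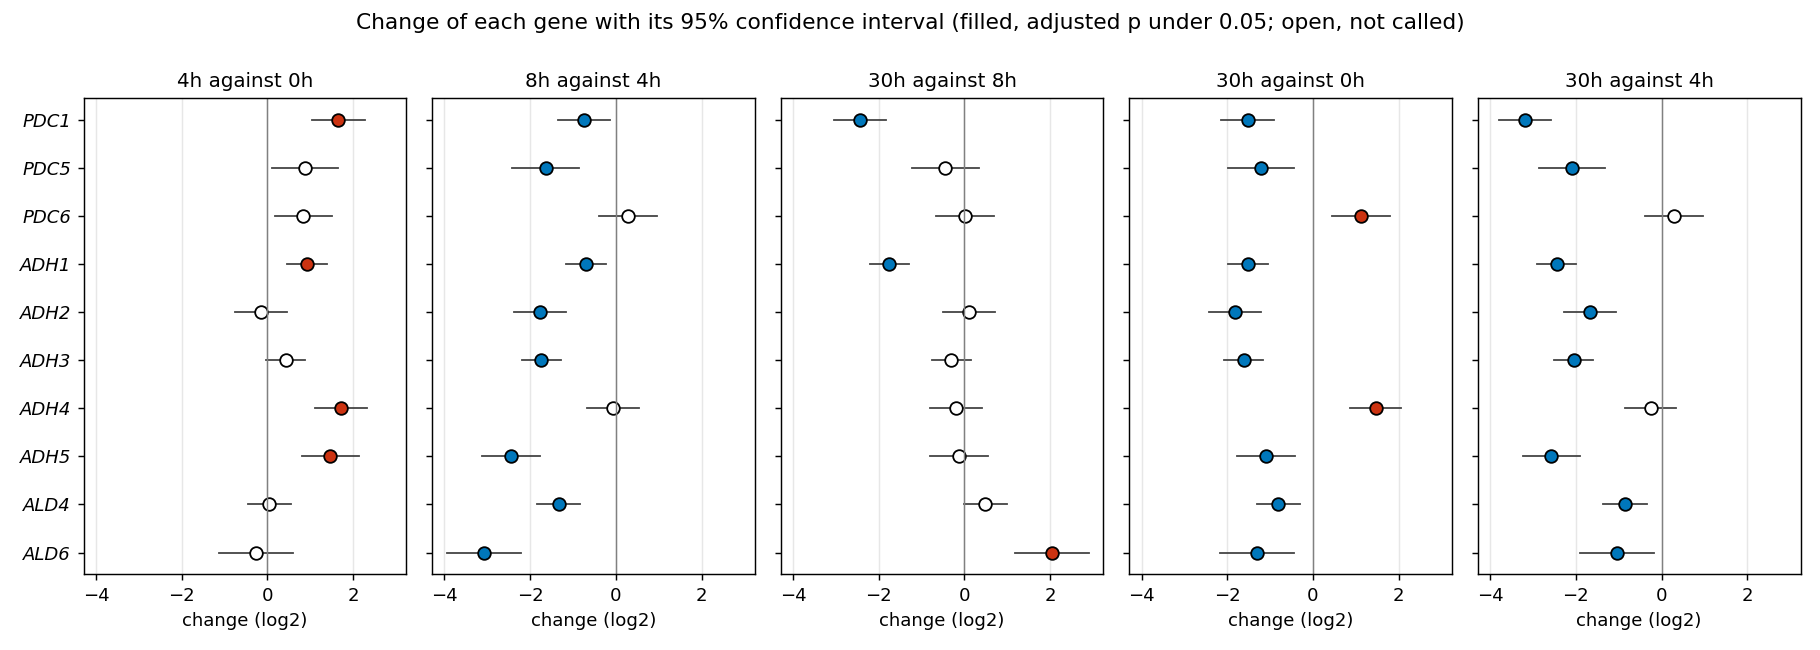
Log2 change (x axis) of each gene (y axis) in the 5 comparisons, with 95% confidence intervals from limma; red and blue points are called higher and lower at an adjusted p under 0.05, open points are not called. From 4h to 8h, 8 genes are called lower; from 8h to 30h PDC1 and ADH1 are lower and ALD6 is higher, and with deposited signals that were not normalised the sign of 13 of the 50 values differs.

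ALD6, for the cytosolic acetate-forming enzyme, had the largest fall of the 10 genes from 4h to 8h and the largest rise from 8h to 30h. Its levels in samples A, B and C were 9.50, 10.19 and 10.33 (0h), 9.86, 9.70 and 9.66 (4h), 6.79, 6.77 and 6.42 (8h), and 9.89, 7.93 and 8.27 (30h). The 8h arrays were far below all others, and at 30h sample A lay with the early arrays, above B and C. ALD6 fell by 3.08 ± 0.40, or 8.46-fold, from 4h to 8h (adjusted p = 1.69e-05, limma), at the 2.87th percentile of changes. It rose by 2.04 ± 0.40, or 4.10-fold, from 8h to 30h (adjusted p = 0.0104, limma), at the 99.8th percentile. That rise was 1.46 to 2.49 with any 1 array left out and stayed called, but median centring gave 1.56 and ended the call (adjusted p = 0.0679, limma). At 30h ALD6 was still lower than at 4h, by 2.06-fold (log2 change -1.04, adjusted p = 0.0334, limma), with arrays that overlapped. This call ended without any 1 of the 4h arrays, and without B or C of 30h (up to an adjusted p of 0.171), or in a fit of these 2 times (adjusted p = 0.0613). Without 30h A the change was -1.68. With median centring the changes of ALD6 were -4.005 from 4h to 8h, -2.58 from 0h to 30h and -2.45 from 4h to 30h, all called. The fall from 0h to 30h, 1.31 ± 0.40 in size, likewise lost its call with sample B or sample C of 30h left out (adjusted p = 0.0656 and 0.0534, limma).

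ALD4, for the mitochondrial enzyme, also fell between 4h and 8h, but was not called between 8h and 30h. Levels in samples A, B and C were 9.59, 9.90 and 9.99 (0h), 9.83, 9.90 and 9.88 (4h), 8.92, 8.26 and 8.42 (8h), and 9.26, 9.10 and 8.68 (30h). The late arrays were below the early ones, and 8h and 30h overlapped. ALD4 fell by 1.34 ± 0.24, or 2.53-fold, from 4h to 8h (adjusted p = 0.000212, limma). Median centring made the changes of ALD4 larger, at -2.72 for this step, -2.26 from 0h to 30h and -2.39 from 4h to 30h. Its difference between 8h and 30h was 0.48 ± 0.24 (adjusted p = 0.303, limma), with an interval of -0.02 to 0.99. Neither aldehyde dehydrogenase gene was called between 0h and 4h, with changes of 0.04 (interval -0.46 to 0.55) for ALD4 and -0.27 (interval -1.13 to 0.60) for ALD6. With array weights the change of ALD6 was -0.53 and called (adjusted p = 0.0146, limma).

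**Figure D3:**
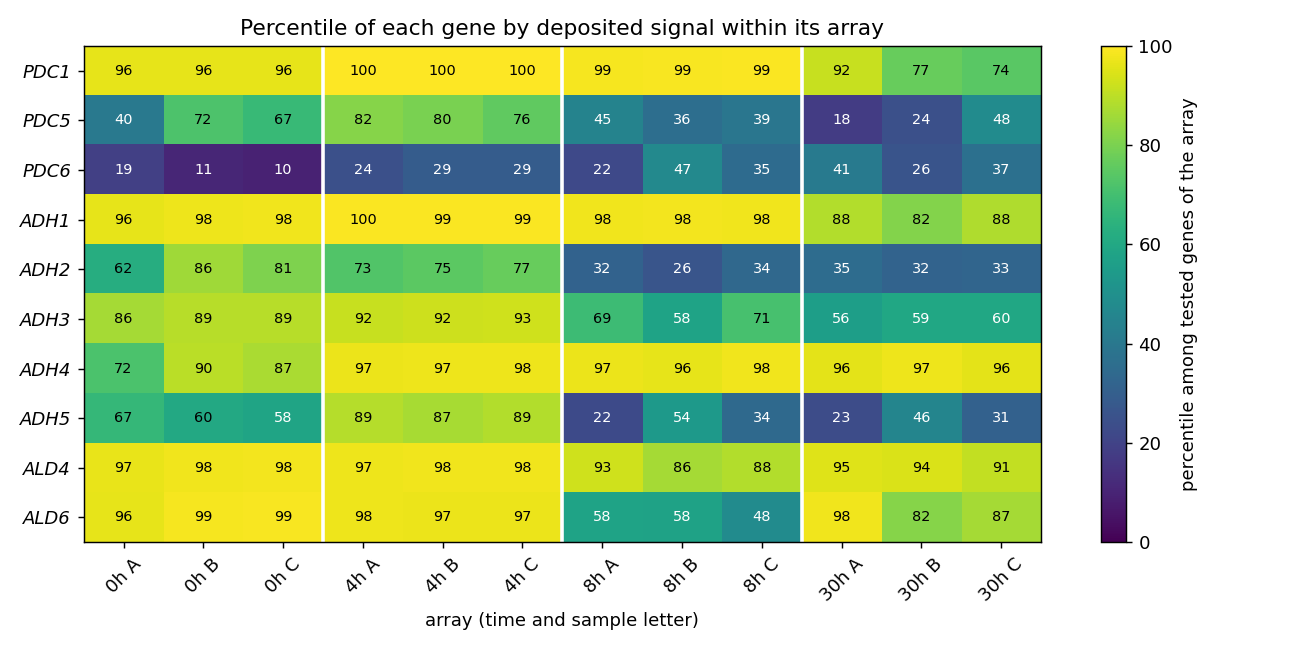
Percentile of each gene (y axis) among the 5503 tested genes of each array (x axis), by deposited signal; it can be compared along a row, since probe sets of different genes differ in brightness. ADH4 lies at 95.8 or higher on all arrays from 4h on, ADH2 drops from 62.5 or higher on the early arrays to 35.3 or lower on the late ones, and ALD6 is at 48.1 to 58.0 at 8h.

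The percentile of a gene within its array uses the deposited signals as they are and is not altered by any scaling of the array. Quantile normalisation turns this same rank into a level, so the percentile is no separate check on the levels above. By this measure ADH2 stood at 62.5 to 85.8 on the 0h arrays and 72.8 to 76.8 on those of 4h. It then dropped to 26.4 to 33.7 (8h) and 31.7 to 35.3 (30h). ADH1 stood at 99.3 to 99.6 at 4h and at 81.6 to 88.5 at 30h. ALD4 stayed between 86.5 and 98.1 throughout. ALD6 stood at 96.9 to 97.6 (4h), 48.1 to 58.0 (8h) and 82.0 to 97.7 (30h).

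On the deposited scale without normalisation the median tested gene changed by -1.17 between 0h and 4h, -1.28 between 4h and 8h, and 0.58 between 8h and 30h. From 0h to 30h it changed by -1.86 and from 4h to 30h by -0.67. In the same order, that fit called 45, 603, 3, 354 and 971 of all tested genes higher and 2609, 2842, 2, 3635 and 2120 lower. Relative to these shifts, 49 of the 50 changes of the 10 genes kept their sign, the exception being PDC6 at 30h against 8h, where the value was 0.01. All 33 called changes were among them. Without that allowance the changes of ADH1 from 0h to 4h (-0.37), and of ADH4 and PDC6 from 0h to 30h (-1.48 and -0.12), were negative. Median centring called 6 of all tested genes higher and 43 lower at 30h against 8h.

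Whether isozymes changed alike was tested on the difference of their log2 levels within an array, for 7 pairs. Only the change of this difference over time carries meaning, since probe sets differ in brightness. An exact permutation test of the F statistic over the 15400 ways of dividing 12 arrays into 4 sets of 3 was used. It takes the upper tail of F, which covers differences in any direction. Adjustment was over the 7 pairs, and the smallest possible p was 6.49e-05. The difference varied between times for 6 pairs, and for the same 6 on deposited signals. On deposited signals a factor common to a whole array cancels, but the narrower spread of the late arrays does not. The part of that spread was not tested. ADH1 minus ADH4 was 1.69 ± 0.40 at 0h (mean ± SD, n = 3 arrays), 0.90 ± 0.16 at 4h, 0.27 ± 0.29 at 8h and -1.29 ± 0.49 at 30h (exact permutation p = 6.49e-05, adjusted p = 0.000455). ADH1 thus lost ground to ADH4 at each step, and no arrays of different times overlapped. Both held on deposited signals as well, with means of 2.16, 0.71, 0.25 and -0.87.

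ADH1 minus ADH2 was 2.09 ± 0.42 at 0h, 3.17 ± 0.21 at 4h, 4.25 ± 0.24 at 8h and 2.39 ± 0.25 at 30h (exact permutation p = 0.00026, adjusted p = 0.000909). After quantile normalisation the difference was thus widest at 8h. On the deposited signals, where the spread of the arrays still differs, it was widest at 4h. There it was 2.65 ± 0.66, 3.64 ± 0.33, 3.30 ± 0.20 and 1.85 ± 0.20 in order of time (exact permutation, adjusted p = 0.00473). The direction from 4h to 8h therefore turns with the processing, whereas the difference was smaller at 30h than at 8h either way. ADH1 minus ADH3 went from 1.34 ± 0.11 at 0h to 2.88 ± 0.37 at 8h and 1.43 ± 0.34 at 30h (exact permutation p = 0.00201, adjusted p = 0.00352). On deposited signals it was 1.73 ± 0.18, 2.20 ± 0.33 and 1.08 ± 0.28 at these times. ADH1 minus ADH5 was 2.28 ± 0.13 at 4h and 4.03 ± 0.52 at 8h (exact permutation p = 0.0104, adjusted p = 0.0144). On deposited signals these were 2.46 ± 0.28 and 3.13 ± 0.41, and the 0h difference, 3.53 ± 0.32, was the widest.

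PDC1 minus PDC6 was 5.52 ± 0.10 at 4h and 2.05 ± 0.56 at 30h, with 4.71 ± 0.37 and 4.51 ± 0.47 at 0h and 8h (exact permutation p = 0.000714, adjusted p = 0.00167). On deposited signals it was 5.90 and 6.16 at 0h and 4h and 3.67 and 1.63 at 8h and 30h. ALD4 minus ALD6 was 0.13 ± 0.14 at 4h, 1.87 ± 0.34 at 8h and 0.32 ± 0.91 at 30h (exact permutation p = 0.0123, adjusted p = 0.0144). The deposited signals gave 0.14, 1.43 and 0.20 for these means. PDC1 minus PDC5 did not pass, at 4.28 ± 0.26 at 8h and 2.28 ± 1.30 at 30h (exact permutation p = 0.0584, adjusted p = 0.0584). It did pass without 0h A, without 30h A or without 30h C (adjusted p of 0.0456, 0.00129 and 0.0402, exact permutation test). Close relatives such as PDC1 and PDC5, or ADH1 and ADH2, may share some bound RNA, which was not tested.

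**Figure D4:**
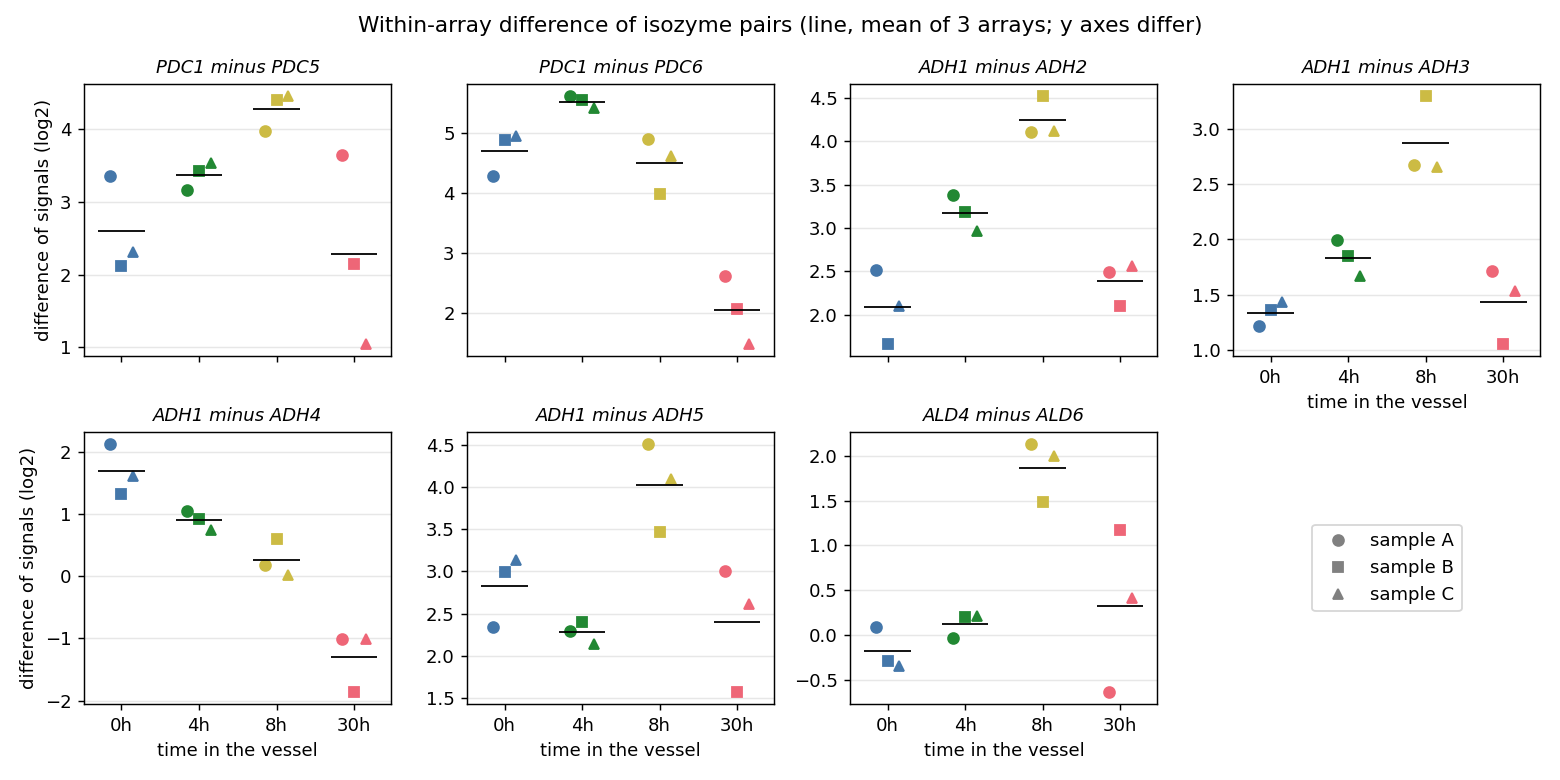
Log2 difference between the normalised signals of 2 isozyme genes on the same array (y axis, which differs between panels) by sampling time (x axis), for 7 pairs; circles, squares and triangles are samples A, B and C and lines are means of 3 arrays. ADH1 minus ADH4 goes down at each step from 1.69 to -1.29; ADH1 minus ADH2 is widest at 8h here, after quantile normalisation, but at 4h on deposited signals.

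Genes that border on this branch were counted from 6 lists, in the order below: glycolysis, other fates of pyruvate, acetate use, other dehydrogenases, regulators and zinc. These counts depend on the scaling of the arrays. Without normalisation, which includes the shift of the median gene, 2, 0, 0, 0, 0 and 0 genes of these lists were called higher at 4h than at 0h and 0, 5, 4, 1, 6 and 7 lower. With median centring 8, 7, 3, 2, 9 and 1 were higher and 0, 0, 0, 1, 5 and 3 lower. From 4h to 8h median centring called 0, 1, 4, 0, 6 and 3 higher and 6, 12, 6, 6, 7 and 4 lower, and no normalisation 0, 0, 0, 0, 2 and 1 higher and 7, 13, 7, 6, 12 and 6 lower. From 8h to 30h no gene of the lists was called without normalisation, and 1 zinc gene was with median centring. The counts that follow are after quantile normalisation. Over all tested genes, 11.8% were called higher and 11.8% lower from 0h to 4h. From 4h to 8h these shares were 30.7% and 33.9%, and from 8h to 30h 0.909% and 2.73%. Of 8 tested genes of lower glycolysis and pyruvate kinase, which supply pyruvate, 8 rose from 0h to 4h, with a median change of 2.61, against 0.02 for all tested genes and the 11.8% called higher. TDH2, also on that list, had no named probe set and was not tested. TDH3, for glyceraldehyde-3-phosphate dehydrogenase, ENO2, for enolase, and PGK1, for phosphoglycerate kinase, rose by 3.44 ± 0.65, 3.38 ± 0.39 and 2.84 ± 0.38. In the next step, 6 of the 8 fell and 1 rose (median -1.12), with ENO1 and ENO2 falling by 1.68 ± 0.57 and 1.25 ± 0.39. PYK2, for the minor pyruvate kinase, rose by 1.63 ± 0.28. From 8h to 30h 2 fell and none rose (median -0.83). These were ENO2, which fell by 1.73 ± 0.39, and GPM1, for phosphoglycerate mutase, which fell by 1.08 ± 0.24, with TDH3 at -1.70 ± 0.65 (adjusted p = 0.187, limma).

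Of 16 genes for the other fates of pyruvate (mitochondrial import, pyruvate dehydrogenase and its regulators, pyruvate carboxylase) and for lactate dehydrogenases, 7 rose and none fell from 0h to 4h (median 0.51). Over all genes, 11.8% were called higher and 11.8% lower in that step. PTC5 and PTC6, for phosphatases that act on pyruvate dehydrogenase, and PKP1, for its kinase, rose by 1.65 ± 0.23, 1.39 ± 0.23 and 1.59 ± 0.34. Between 4h and 8h 12 fell and 2 rose (median -2.08), against 33.9% called lower and 30.7% higher over all genes. DLD1 and CYB2, for the lactate dehydrogenases, fell by 4.16 ± 0.26 and 2.82 ± 0.29, and MPC3, for a subunit of the mitochondrial pyruvate carrier, fell by 3.03 ± 0.44. None of the 16 was called from 8h to 30h with limma (2 at an unadjusted p under 0.05, median 0.15), where MPC3, PYC1 and PTC6 were at 1.27 ± 0.44, 0.57 ± 0.27 and 0.56 ± 0.23 (adjusted p of 0.151, 0.286 and 0.227).

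Of 12 genes that carry acetate on to acetyl-CoA, move acetyl units or carboxylate acetyl-CoA, 3 rose and none fell from 0h to 4h (median 0.33). Over all genes, 11.8% were called higher and 11.8% lower in that step. ACC1, for acetyl-CoA carboxylase, ACH1, for a CoA transferase, and ATO2, for a putative ammonium exporter related to the acetate transporter, rose by 1.48 ± 0.24, 1.16 ± 0.33 and 1.15 ± 0.26. From 4h to 8h 6 fell and 3 rose (median -0.78), against 33.9% called lower and 30.7% higher over all genes. ACS2, for the acetyl-CoA synthetase of growth on glucose, and ACH1 had called changes of -2.25 ± 0.39 and -2.001 ± 0.33, and ATO3 rose by 2.57 ± 0.27. From 8h to 30h 1 fell and none rose (median -0.03), against 2.73% called lower and 0.909% higher over all genes. That gene was ACC1, which fell by 1.20 ± 0.24, while ACS1, for the other acetyl-CoA synthetase, was at 0.75 ± 0.21 and YAT1, for a carnitine acetyltransferase, at -0.63 ± 0.32 (adjusted p of 0.0721 and 0.326, limma).

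Of 9 tested other alcohol and aldehyde dehydrogenases and reductases, with ADH7 too dim to be tested, 1 rose and none fell from 0h to 4h (median 0.49). The shares over all genes were 11.8% called higher and 11.8% lower. BDH1, for butanediol dehydrogenase, rose by 1.34 ± 0.20, with ALD5 at -1.12 ± 0.41 and SFA1 at 0.71 ± 0.31 (adjusted p of 0.0651 and 0.112, limma). From 4h to 8h 6 fell and 1 rose (median -0.97), against 33.9% called lower and 30.7% higher over all genes. BDH2 fell by 3.84 ± 0.47, and at 8h 1 of its 3 arrays exceeded the background threshold. SFA1 and ADH6, which both act on longer alcohols or aldehydes, fell by 2.21 ± 0.31 and 2.09 ± 0.39. None of the 9 was called from 8h to 30h with limma (3 at an unadjusted p under 0.05). ALD5, for a mitochondrial aldehyde dehydrogenase, exceeded the threshold on none of the 8h arrays, so its mean signal at 30h has only a bound against them, at least 1.62-fold higher, in a difference that was not called (adjusted p = 0.271, limma) and with overlapping arrays, and ARI1 and SFA1 were at -0.57 ± 0.24 and -0.55 ± 0.31 (adjusted p of 0.2297 and 0.378).

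Of 21 genes for regulators known to act on members of this branch, 6 rose and 1 fell from 0h to 4h (median 0.43). The shares over all genes were 11.8% called higher and 11.8% lower. HAP5, for a subunit of the respiratory activator, REG1, for a subunit of the phosphatase that takes part in glucose repression, and GCR1, for the glycolytic activator, rose by 1.91 ± 0.30, 1.77 ± 0.44 and 1.54 ± 0.31. ADR1, for the activator of ADH2, rose by 1.15 from 0h to 4h and changed by -0.11 and -0.17 in the steps that followed, which were not called. ADR1 was singled out after its values were seen. At 8h against 4h 6 regulators rose and 7 fell (median 0.04), against 30.7% called higher and 33.9% lower over all genes. PDC2 and THI2, for activators of decarboxylase and thiamine genes, rose by 2.78 ± 0.24 and 2.11 ± 0.22, and SNF4, for a subunit of the Snf1 kinase, fell by 2.67 ± 0.24 and exceeded the background on 2 of 3 arrays at 8h. Whether the transcript of PDC2 bears on the levels of PDC1 and PDC5 was not tested. No regulator was called from 8h to 30h with limma (4 at an unadjusted p under 0.05), GCR2, RAP1 and STB5 being at -1.02 ± 0.46, -0.71 ± 0.31 and 0.71 ± 0.25 (adjusted p of 0.27, 0.253 and 0.157). GCR2 exceeded the background on 1 of 3 arrays at 30h.

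Of 12 zinc-responsive genes, none rose and 1 fell from 0h to 4h (median -0.28), against 11.8% called higher and 11.8% lower over all genes. Any part of zinc in the rise of ADH4 in that step was not tested. VEL1, of unknown function, fell by 0.90 ± 0.30 and exceeded the background on 2 of 3 arrays at 0h and 1 of 3 at 4h. ZRT3 was at -0.66 ± 0.23 and IZH2 at 0.65 ± 0.23 (adjusted p of 0.0555 and 0.055, limma). ZRT1, for the high-affinity zinc transporter, and ZAP1, for the zinc-responsive activator, were at -0.29 and -0.13, with ZAP1 above background on 2 of 3 arrays at 0h. FET4 was at 0.55 (adjusted p = 0.231, limma). At 8h, 5 were called higher than at 4h and 4 lower (median -0.09), against 30.7% and 33.9% over all genes. VEL1 and IZH2 rose by 4.54 ± 0.30 and 1.42 ± 0.23. For VEL1 the starting level was above background on 1 of 3 arrays, so the size of its rise is uncertain. ZRC1, for the vacuolar zinc transporter, fell by 2.82 ± 0.46, and ZRT1 fell by 1.37. The other called changes at 8h were 1.38, 0.62 and 0.53 for ZRG17, ZPS1 and IZH1, and -0.82 and -0.86 for ZRT3 and COT1. From 8h to 30h ZPS1 rose by 1.43 ± 0.24 and none fell (median 0.39), against 0.909% called higher and 2.73% lower over all genes. VEL1 and ZRT3 were at 0.68 ± 0.30 and 0.64 ± 0.23 in that step (adjusted p of 0.253 and 0.169, limma). ZRT1, ZAP1 and FET4 were singled out after their values were seen.

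**Figure D5:**
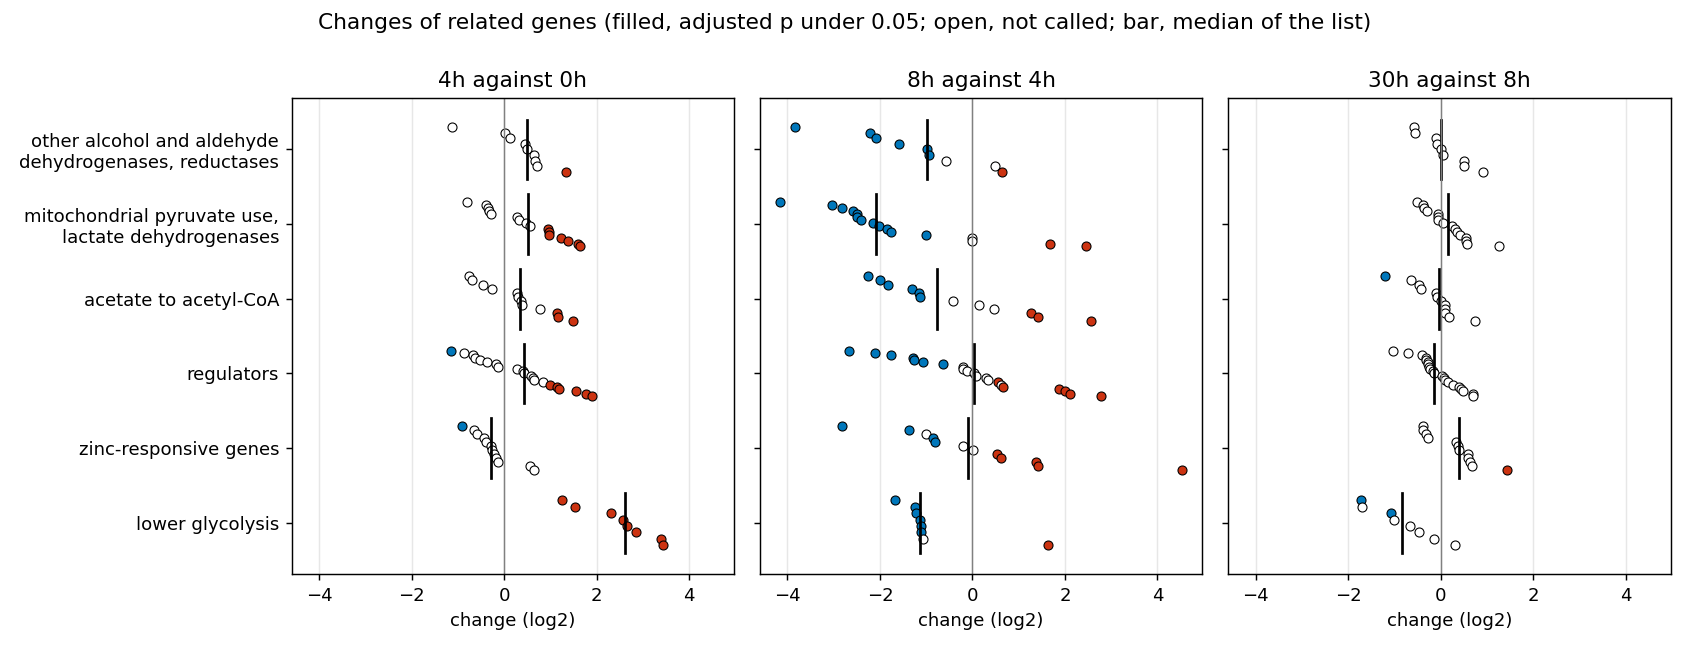
Log2 change (x axis) of each tested gene of the 6 lists (y axis) in 3 comparisons; red and blue points are called higher and lower at an adjusted p under 0.05, open points are not called, and bars are list medians. All 8 tested lower glycolysis genes are called higher from 0h to 4h (2 without normalisation), and few genes of any list are called from 8h to 30h.

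Among the 10 genes, patterns fell into overlapping sets, described by Pearson's r over the 12 arrays, which share 4 times and their array differences. ADH2 had an r of 0.932 with ADH3, 0.911 with ALD4 and 0.812 with ALD6, and ALD4 had 0.906 with ALD6. PDC5 had 0.889 with ADH3 but 0.604 with PDC1. PDC6 had 0.600 with ADH4 and between -0.726 (ADH2) and 0.001 (PDC1) with the others. The r of ADH4 with ADH1 was 0.086.

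Outside the 10, the nearest pattern to PDC1 was that of YDR524C-B (r = 0.968), followed by TIP1, for a cell wall mannoprotein (0.961), and TPI1, for triose phosphate isomerase (0.944). The genes nearest to ADH1 were FAS1, for a fatty acid synthase subunit (0.983), TIP1 (0.966) and RPL1B, for a ribosomal protein (0.946). For ADH3 they were MRPL28, for a mitochondrial ribosomal protein (0.992), PDB1, for a pyruvate dehydrogenase subunit (0.989), and GET3 (0.988). For ADH2 they were SUI3 (0.987), GCV3 (0.983) and RAD16 (0.983), and for ADH4 EPT1 (0.968), TSA2 (0.964) and AIM3 (0.963). ALD6 was nearest to GPB1 (0.965), SRP40 (0.964) and MNN5 (0.955), and ALD4 to SNU114 (0.983), ARA2 (0.972) and YBR016W (0.970). PDC5 was nearest to CBP3 (0.976), PIC2 (0.972) and YPK2 (0.972), PDC6 to GRS2 (0.966), RAD34 (0.939) and MHP1 (0.919), and ADH5 to YDL124W (0.974), DSD1 (0.971) and MYO3 (0.964). These genes were picked as the highest r among all tested genes outside the 10, so high values follow from the choice. Spearman's rho, which uses ranks, ran from 0.727 (AIM3 with ADH4) to 0.986 (GCV3 with ADH2, MRPL28 with ADH3). It was 0.748 for EPT1 with ADH4, 0.779 for RPL1B with ADH1 and 0.790 for GPB1 with ALD6.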

How the data were processed

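Each array has a linear intensity for 10928 probe sets, as the authors deposited it. Their software was GCOS 5.0 with the MAS5 algorithm, per the submitters' processing notes; its settings are not given in the sources used here. The deposited columns do not share a scale. Genes were named through the platform annotation, and organisms told apart by the spelling of gene names (5685 S. cerevisiae and 4915 S. pombe probe sets with 1 gene). 1 probe set stood for a gene, and 132 genes whose mean log2 signal was not above the 95th percentile of S. pombe means (a signal of 7.74) were left out.

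Log2 signals were quantile normalised over 5503 genes and tested in R 4.3.3 with limma 3.58.1 (1 coefficient per time, 12 arrays, 8 residual degrees of freedom, eBayes with trend, two-sided). Calls were made where p, adjusted by Benjamini and Hochberg across the tested genes, was under 0.05. Genes named are the 10, the 3 largest changes per list and comparison, and the 3 nearest patterns. The steps were tested on simulated data. The 10 genes, lists and tests were chosen with earlier results of these data known. Array number limits precision. Alternatives were other scalings, a pseudocount of 16, no filter, mean over probe sets, 2 times alone, array weights, a replicate block and leaving out arrays. No sequences were printed, as no sequence table was used here.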

Additional observations from a re-analysis of the deposited data

How the results depend on the processing

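Without normalization the 10 genes had 0 calls higher and 3 lower at 4h against 0h, 0 higher and 0 lower at 30h against 8h, and 0 higher at 30h against 0h. Of all 5503 tested genes, that fit called 45 higher and 2609 lower at 4h against 0h. At 30h against 8h it called 3 higher and 2 lower, and at 30h against 0h 354 higher. With deposited signals as they are, the sign turned at 4h against 0h for PDC5 (-0.087), PDC6 (-0.11), ADH1 (-0.37), ADH3 (-0.49) and ALD4 (-1.07, adjusted p = 0.0449, limma). It also turned for PDC6 at 8h against 4h (-0.57), at 30h against 0h (-0.12) and at 30h against 4h (-0.0033). At 30h against 8h it turned for PDC5 (0.22), ADH3 (0.32), ADH4 (0.32) and ADH5 (0.47), and at 30h against 0h for ADH4 (-1.48, adjusted p = 0.0156, limma). These values include the shift of the median gene. Median centring gave 7 higher at 4h against 0h, 0 higher at 30h against 8h and 1 higher at 30h against 0h, and turned the sign of none of the 33 called values. Over all tested genes it called 1025, 6 and 1706 higher in these comparisons. With array weights 7 were higher and 2 lower at 4h against 0h, against 1781 and 1527 over all genes. Array weights turned the sign of ALD4 in that comparison (-0.078) and of PDC6 at 30h against 8h (-0.19). Leaving out both 0h A and 0h C, an alternative chosen after seeing the data, turned ALD4 at 4h against 0h (-0.027), which was not called. The causes were not tested.

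With 1 array left out at a time, changes that were not called ranged across 0 for ADH2 (-0.50 to 0.11) and ALD4 (-0.072 to 0.13) at 4h against 0h, ADH4 at 8h against 4h (-0.19 to 0.049), and PDC6 (-0.25 to 0.26) and ADH5 (-0.42 to 0.21) at 30h against 8h. Counts over all genes at 4h against 0h were 320 to 783 higher and 353 to 767 lower in those fits, and 1781 and 1527 with array weights. At 30h against 8h they were 25 to 255 and 99 to 313, and 178 and 238 without the 0h arrays, which was also chosen after seeing the data. A pseudocount of 16, no filter on dim genes (5635 genes) and the mean over probe sets changed no call of the 10 genes between times, while the pseudocount let the PDC1 and PDC5 pair pass (adjusted p = 0.0286, exact permutation test).

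Samples share the letters A, B and C across times. Deviations from the time means of the 18 pairs with the same letter had correlations of -0.21 to 0.24, with 2 over 0.1, and those with different letters -0.31 to 0.26, so the letters were not taken as pairs. With the letter as a replicate block 4 of the 10 genes were higher and 0 lower at 4h against 0h, with 618 and 639 over all genes, and no call of the 10 changed. Each time has 3 arrays, and limma shares 1 spread per gene over all times, although PDC1 and ALD6 spread more at 30h (SD 0.71 and 1.05) than at 4h (0.08 and 0.11).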
